A study of Homo sapiens with 6 samples.

Results

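The replication-dependent histone genes encode the core histones H2A, H2B, H3 and H4 and the linker histones H1 that package new DNA. They were taken as the protein-coding genes whose current symbol is H1-1 to H1-5 or starts with H2AC, H2BC, H3C or H4C and a digit. In GENCODE release 44, 69 genes match this rule. Of these, 34 have no row under their current identifier in the deposited table and were not analysed here, and 35 have a row. A total of 11 of the 35 had 10 counts or fewer over the 6 samples, which left 24 genes to test among 21729 tested genes. By family, 4 of 5 H1 genes, 6 of 17 H2A genes, 9 of 19 H2B genes, 2 of 13 H3 genes and 3 of 15 H4 genes were tested.

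RNA was measured in UWB1.289 cells, an ovarian cancer line that lacks functional BRCA1 and whose genotype the sample labels give as WT. There were 3 samples after 24 h with 4 µM Olaparib, an inhibitor of the DNA repair enzyme PARP1, and 3 samples after 24 h with the vehicle DMSO, and the design text of the series gives 10 µM for the same experiment. Libraries were made from poly(A)-selected RNA and held between 35360458 and 39640775 counts. All samples come from 1 cell line, so the p-values measure the spread between these samples, and in such bulk RNA fewer cells that express a gene and less of its RNA per cell cannot be told apart. Of 9 epithelial and ovarian carcinoma markers, 8 were above 10 counts in total, with a summed level between 12846 and 13694 CPM (counts per 1000000 counts of the library), whereas WT1 had 8 counts in total. Of 8 markers of leukocytes, endothelium, fibroblasts and erythroid cells, 4 were above 10 counts, and their summed level was 11.2 to 14.5 CPM.

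Replication-dependent histone mRNAs are the class of animal mRNA that normally carries no poly(A) tail. Their transcripts end shortly after a conserved stem-loop, which the protein SLBP binds and next to which the U7 small nuclear ribonucleoprotein guides cleavage. They are made in S phase and are degraded when DNA synthesis stops. A library made from poly(A)-selected RNA is therefore made to capture those histone transcripts that did receive a tail, and how much RNA without a tail came through was not measured. Levels are given as CPM, scaled with edgeR's TMM method, and, where genes are compared with each other, as CPM per kilobase of annotated exon.

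The stem-loop was searched for in the GRCh38 genome within 100 bases after each stop codon, on the strand of the gene. A motif of 16 bases was found in 68 of the 69 genes (98.6%), including all 24 tested genes, and in 72 of 19945 protein-coding genes (0.361%). The remaining gene of the 69 was H2BC12L. The other 4 protein-coding genes with the motif were H1-6, H2AX, H3-4 and H3-7. The sequences of the tested genes with the highest level per kilobase in each family are shown to place the stem-loop beside the values, followed by both tested genes with a form of their own and by H2AX. Capitals mark the stem-loop, and 5 bases on each side are in lower case, written 5′ to 3′ on the strand of the gene.
H1-2 (chr6:26055739-26055764, minus strand): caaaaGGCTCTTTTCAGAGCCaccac
H2AC6 (chr6:26124664-26124689, plus strand): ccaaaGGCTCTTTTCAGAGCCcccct
H2BC12 (chr6:27146361-27146386, minus strand): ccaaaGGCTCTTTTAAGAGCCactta
H3C4 (chr6:26196784-26196809, minus strand): ccaaaGGCTCTTTTCAGAGCCaacca
H4C3 (chr6:26104312-26104337, plus strand): ccaaaGGCCCTTTTCAGGGCCgctca
H2AC11 (chr6:27133510-27133535, plus strand): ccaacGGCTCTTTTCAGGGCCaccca
H2AC20 (chr1:149887386-149887411, plus strand): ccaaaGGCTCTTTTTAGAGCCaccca
H2AX (chr11:119094893-119094918, minus strand): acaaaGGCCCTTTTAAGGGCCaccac

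The form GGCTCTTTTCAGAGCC, shown for H1-2, H2AC6 and H3C4, was found in 40 of the 68 genes and in 14 of the 24 tested genes, and in no H4 gene. The form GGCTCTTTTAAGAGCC of H2BC12 was found in 8 genes, 5 of them tested. The form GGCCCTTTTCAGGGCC of H4C3 was found in 10 genes, all of the H4 family and 3 of them tested. The 15 H4 genes carried forms that no gene of the other 4 families carried.

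The level of the tested genes was low in every sample. Their summed level was 49.2, 50 and 55.1 CPM in Olaparib samples 1 to 3 and 56.6, 50.7 and 54.5 CPM in DMSO samples 1 to 3. The groups overlapped, with means of 51.4 ± 3.19 CPM (SD, n = 3) after Olaparib and 53.9 ± 2.99 CPM (SD, n = 3) after DMSO. The difference in mean log2 level was -0.07, and the exact permutation test, two-sided over the 6 samples, gave p = 0.3, where the smallest p that 3 samples against 3 allow is 0.1. H2BC12 alone made up 35.7% of the summed level and H2AC6 15.7%. For comparison, the 11 replication-independent histone genes reported here, whose mRNAs generally carry a poly(A) tail, summed to between 1649 and 1699 CPM. These sums are not of like coverage. The first leaves out the 34 of 69 replication-dependent genes that have no row under their current identifier, whereas all 11 genes of the second have one. Whether the 34 genes have rows under older identifiers was not tested.

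**Figure D1:**
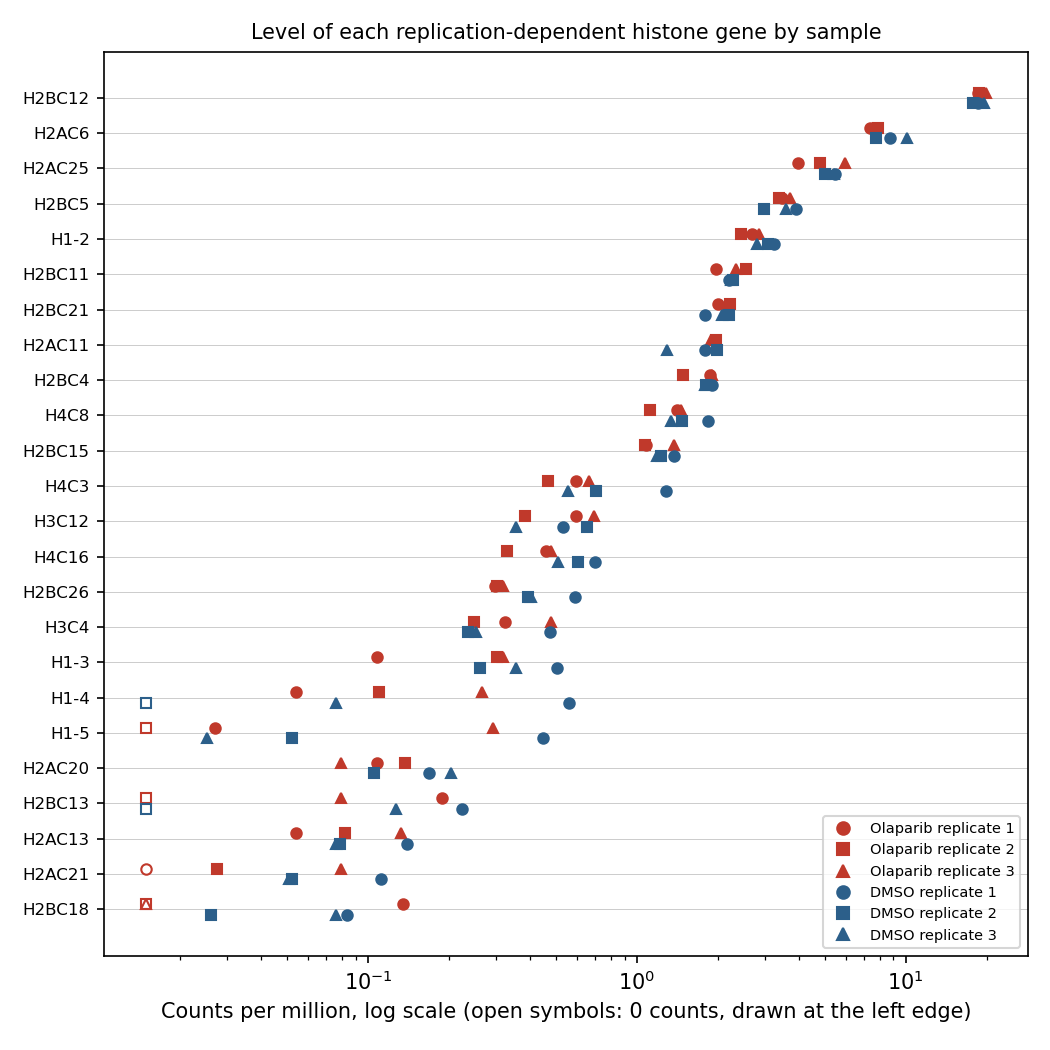
Level of the 24 tested histone genes in each sample, in CPM on a log axis, with the genes ordered by mean level. Each symbol is 1 sample (red, Olaparib; blue, DMSO), and open symbols at the left edge are samples with 0 counts. H2BC12 lay between 17.8 and 19.8 in the 6 samples, and the genes below H1-3 stayed at or under 0.559 in all samples.

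None of the 24 genes passed the test between Olaparib and DMSO (edgeR's quasi-likelihood test, Benjamini-Hochberg adjusted p under 0.05), where 3.36% of all tested genes did, 2.15% higher and 1.21% lower after Olaparib. Where calls also had to exceed 1.2-fold in size, the count was again 0 of 24, beside 1.21% of all tested genes. The smallest adjusted p was 0.171 (edgeR), for H2AC6. At an unadjusted p under 0.05 the count was 1 of 24 by edgeR, against 14.8% of all tested genes (6.97% lower after Olaparib), 1 by limma voom and 0 by DESeq2. DESeq2 also called 0 at an adjusted p under 0.05 and gave no adjusted p for 19 of the 24 genes. The groups did not overlap in 2 of the 24 genes (8.33%), H2BC26 and H4C16, both lower after Olaparib, while they did not overlap in 19.3% of all tested genes, with 9.29% lower after Olaparib. Both were named after their values were seen.

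The depth behind these genes was low. Of the 24 genes, 2 had a mean count of 200 or more, H2BC12 and H2AC6. Among all tested genes, 0.883% of those with a mean count under 200 passed the test, against 5.84% of those at 200 or more. A log2 fold change below 0 was found in 17 of the 24 histone genes, beside 51.4% of all tested genes, and in 12 of 22 without DMSO replicate 1. The median log2 fold change was -0.20, beside -0.0042 over all tested genes. This median was -0.019 without DMSO replicate 1, -0.058 without Olaparib replicate 2, -0.11 without Olaparib replicate 1 and -0.099 over the 17 genes that edgeR's stricter count filter kept. The 13 genes that averaged 20 counts or more had a median of -0.064 and 7 values below 0. The 11 genes under that count had a median of -0.50 and 10 values below 0.

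**Figure D2:**
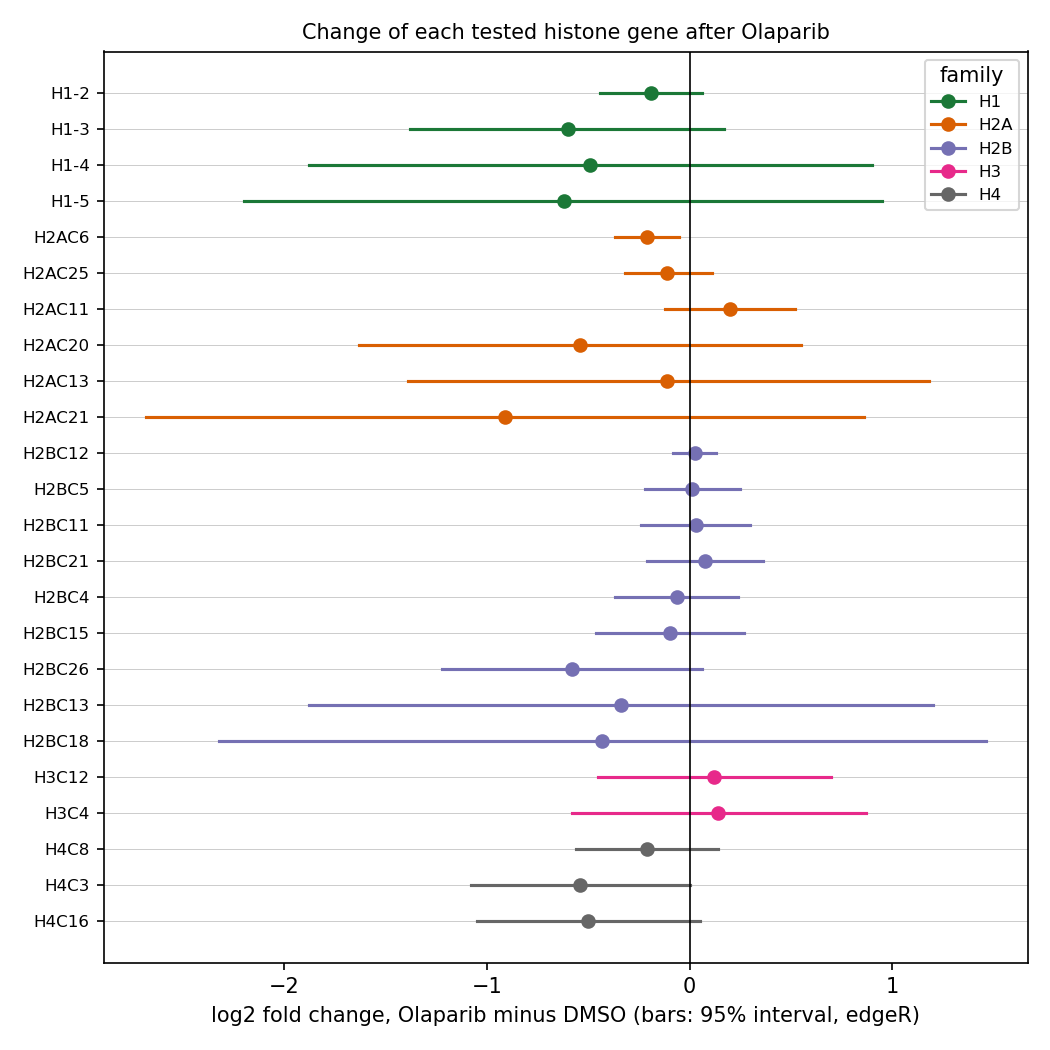
Log2 fold change (Olaparib minus DMSO, edgeR) of the 24 tested histone genes, grouped by family. Points are estimates and bars are 95% intervals. H2AC6 is the gene whose interval lies wholly below 0, but its adjusted p was 0.171, and the intervals were narrow for H2BC12 (-0.08 to 0.13) and wide for H2AC21 (-2.68 to 0.86).

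H2BC12, which encodes a canonical H2B (ENSG00000197903, chromosome 6, 27146361 to 27146855, minus strand), had the highest level per kilobase of the 24 genes at 38.0 CPM per kilobase. It stood at 18.5, 18.7 and 19.8 CPM after Olaparib and at 18.5, 17.8 and 19.6 CPM after DMSO. The 2 groups lay on top of each other. Its log2 fold change was 0.026 ± 0.051 (SE), with a 95% interval of -0.08 to 0.13 and an adjusted p of 0.876 (edgeR). Of the 50-base stretches in its exon, 57.2% also occur in transcripts of other genes, among them ENSG00000274559 and H2BC12L, so its counts may be shared with these copies. H2BC12L itself was listed at 0 in all samples.

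H2AC6, which encodes a canonical H2A (ENSG00000180573, chromosome 6, 26124145 to 26139116, plus strand), followed at 4.96 CPM per kilobase. Its levels were 7.35, 7.86 and 7.81 CPM after Olaparib and 8.77, 7.73 and 10.1 CPM after DMSO. DMSO replicate 2 lay within the range of the Olaparib samples, and the other two DMSO samples lay above it. The log2 fold change was -0.21 ± 0.080 (SE), with an unadjusted p of 0.0134 and an adjusted p of 0.171 (edgeR). Over the 14 alternatives computed for this gene, the log2 fold change stayed between -0.30 and -0.10 and the adjusted p between 0.0574 and 0.675.

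H2BC5, another canonical H2B gene, had a level of 4.07 CPM per kilobase. It stood at 3.46, 3.37 and 3.72 CPM after Olaparib and at 3.91, 2.96 and 3.60 CPM after DMSO, so that the Olaparib samples lay within the range of the DMSO samples. H1-2, a linker histone that binds where DNA enters and leaves the nucleosome, had 3.89 CPM per kilobase. Its levels were 2.68, 2.44 and 2.84 CPM after Olaparib and 3.24, 3.07 and 2.79 CPM after DMSO, and the highest Olaparib sample lay just above the lowest DMSO sample. The log2 fold change of H1-2 was -0.19 ± 0.12 (SE), with an adjusted p of 0.508 (edgeR).

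H2AC11, an H2A gene with the mixed stem-loop form shown above, had 3.68 CPM per kilobase. It had 72, 72 and 71 counts after Olaparib and 64, 76 and 51 counts after DMSO. DMSO replicate 3 was the lowest sample and DMSO replicate 2 the highest, so the groups overlapped. The log2 fold change was 0.20 with all samples (adjusted p = 0.616, edgeR) and was 0.031 to 0.34 over the alternatives. H2AC25, a further H2A gene on chromosome 1, had 2.75 CPM per kilobase, with 3.97, 4.80 and 5.92 CPM after Olaparib and 5.45, 5.00 and 5.39 CPM after DMSO. The Olaparib samples of H2AC25 spread on both sides of the DMSO samples. H2BC11, at 2.16 CPM per kilobase, had 1.97, 2.55 and 2.34 CPM after Olaparib and 2.21, 2.28 and 2.23 CPM after DMSO, and its log2 fold change was 0.030 ± 0.14 (SE).

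The 3 tested H4 genes, which encode the same core histone, all had log2 fold changes below 0 and none passed the test. H4C3 had 1.76 CPM per kilobase and stood at 0.595, 0.466 and 0.664 CPM after Olaparib and at 1.28, 0.707 and 0.557 CPM after DMSO. DMSO replicate 1 was the highest of its 6 samples and DMSO replicate 3 lay among the Olaparib samples. Its log2 fold change was -0.54 ± 0.27 (SE) with an adjusted p of 0.341 (edgeR), and -0.13 without DMSO replicate 1. H4C8 had counts of 52, 41 and 55 after Olaparib and of 66, 56 and 53 after DMSO, with a log2 fold change of -0.21 and an adjusted p of 0.624 (edgeR). H4C16, on chromosome 12 and away from the histone clusters, had counts of 17, 12 and 18 after Olaparib and of 25, 23 and 20 after DMSO, so that the groups were apart by 2 counts. Its adjusted p was 0.405 (edgeR).

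H2BC26, on chromosome 1, was the other gene whose groups did not overlap. It had counts of 11, 11 and 12 after Olaparib and of 21, 15 and 16 after DMSO. Its log2 fold change was -0.58 ± 0.31 (SE), with an adjusted p of 0.405 (edgeR).

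Summed by family, no group of genes differed beyond the spread between samples. The log2 ratio of Olaparib to DMSO was -0.26 for the 4 H1 genes, -0.13 for the 6 H2A genes, 0.0079 for the 9 H2B genes, 0.10 for the 2 H3 genes and -0.35 for the 3 H4 genes. The exact permutation p-values, two-sided and unadjusted over these 5 sums, which were formed after the data were seen, were 0.3, 0.2, 1, 0.7 and 0.3, and the smallest p the design allows is 0.1. The summed H4 level was 2.46, 1.92 and 2.60 CPM after Olaparib and 3.83, 2.78 and 2.41 CPM after DMSO, with the lowest DMSO sample below Olaparib samples 1 and 3.

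Both tested H3 genes, H3C12 and H3C4, share sequence with other genes, so their values are uncertain. The annotation places 96.6% of the exon bases of H3C4 and 40.3% of those of H3C12 also in an exon of another gene on the same strand, and 96.5% and 36.7% of their 50-base stretches recur in transcripts of other genes. Several genes with near-identical copies were listed at 0 in all samples. These were H3C14 and H3C15, of which 99.2% and 100% of the 50-base stretches recur elsewhere, and H4C14 and H4C15 with 97.5% and 100%. H2AC7, with 83.9%, was also at 0, but 85.3% of its exon bases lie in an exon of an overlapping gene on the same strand. How reads that fit several copies were counted is not given in the sources used here. The testis-type genes H2BC1 and H2AC1, in which 0% of the stretches recur, were also at 0 in all samples.

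At the count filter, H2AC21 and H2BC18 lay just inside it with 12 counts in total each, and H4C11 lay just outside it with 6. H2AC21 had 0, 1 and 3 counts after Olaparib and 4, 2 and 2 after DMSO. H2BC18 had 5, 0 and 0 counts after Olaparib and 3, 1 and 3 after DMSO. At 3 counts or fewer, a sample was taken to be at the floor, and both genes were at or near it throughout.

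The annotated ends of the transcripts divided the tested genes. In 13 of the 24, the furthest annotated transcript end lay 4 to 5 bases after the stem-loop. In the other 11, at least 1 transcript ended 1729 to 37155 bases beyond it in genome coordinates. The median level was 0.308 CPM for the first class and 1.79 CPM for the second. Per kilobase of exon the medians were 0.397 and 0.666, and 4 of 13 and 4 of 11 genes reached 1 CPM per kilobase. The ranges overlapped widely, from 0.108 to 38.0 in the first class and from 0.0298 to 4.96 in the second. The classes were formed after levels were seen and were not tested, and the exon lengths come from a newer annotation than the identifiers in the table.

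**Figure D3:**
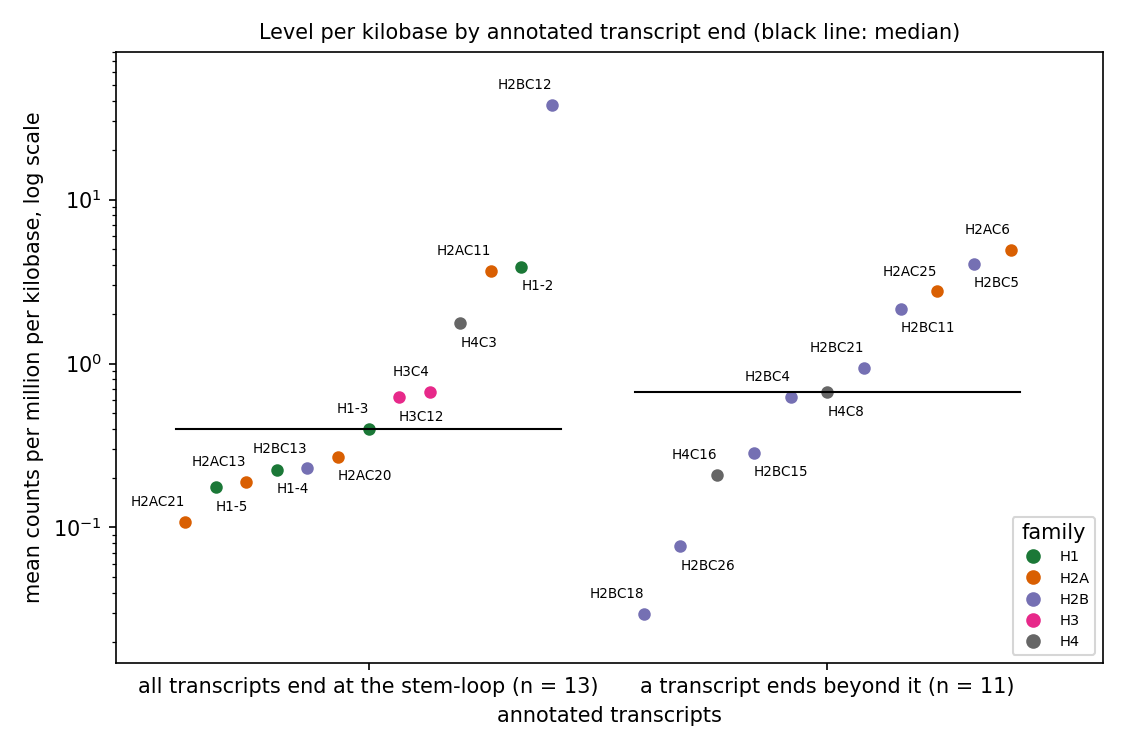
Mean level over the 6 samples in CPM per kilobase of annotated exon, on a log axis. Left are the 13 genes whose furthest annotated transcript end lies at the stem-loop, and right the 11 genes with a transcript that ends beyond it. Points are genes coloured by family and black lines are medians, at 0.397 and 0.666.

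The genes with a short annotated end included H2BC12, H1-2 and H2AC11, which stood above 1 CPM. A poly(A) signal, AATAAA or ATTAAA on the gene's strand, was searched for within 1000 bases after the stem-loop. It began 13 bases after the stem-loop in H1-2 and in H2BC5, and none of these letters were found in that window for H2BC12. In the rest of the 8 genes highest per kilobase, it began at base 746 (H2AC6), 721 (H2AC11), 367 (H2AC25), 207 (H2BC11) and 161 (H4C3). Among genes of lower level, H2BC21 and H2BC15 had none and H2AC13 had it at base 154. A link between this distance and the level was not tested. For all protein-coding genes the window was the 1000 bases after the stop codon, which starts elsewhere, and 75.6% held such a signal. The summed level of the genes with a short end was 25.2, 24.9 and 27.6 CPM after Olaparib and 28.0, 25.0 and 25.8 CPM after DMSO. That of the genes with a long end was 24.0, 25.1 and 27.5 CPM after Olaparib and 28.6, 25.7 and 28.7 CPM after DMSO. In both classes the Olaparib and DMSO samples overlapped.

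Histone genes often lie in divergent pairs, an H2A and an H2B gene that start close together on opposite strands. Among the tested genes there were 5 such pairs, with starts 219 to 248 bases apart. H2AC6 stood at 4.96 CPM per kilobase and its partner H2BC4 at 0.623, which is 7.96-fold apart. H2AC25 stood at 2.75 and H2BC26 at 0.0767 CPM per kilobase, 35.9-fold apart. H2AC20 stood at 0.270 and H2BC21 at 0.934 CPM per kilobase, 3.46-fold apart. H2AC11 and H2BC11, at 3.68 and 2.16, and H2AC13 and H2BC13, at 0.190 and 0.229, were within 1.7-fold of each other, and the latter pair had 21 and 23 counts in total. These ratios depend on the annotated exon lengths. In CPM, H2AC6 and H2BC4 stood at 8.27 and 1.79, H2AC25 and H2BC26 at 5.09 and 0.384, and H2AC20 and H2BC21 at 0.133 and 2.08. H2AC11 and H2BC11 stood at 1.81 and 2.26 CPM, in the opposite order, and H2AC13 and H2BC13 at 0.0939 and 0.103. Of the exon bases of H2BC4, 30.9% also lie in an exon of HFE or another gene on the opposite strand, and the strand setting of the counting is not given in the sources used here.

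The low counts did not spread evenly over the libraries. H1-4, a linker histone, had 2, 4 and 10 counts in Olaparib samples 1 to 3 and 20, 0 and 3 counts in DMSO samples 1 to 3. H1-5, also a linker histone, had 1, 0 and 11 counts after Olaparib and 16, 2 and 1 after DMSO. DMSO replicate 1 and Olaparib replicate 3 together held 76.9% of the counts of H1-4 and 87.1% of those of H1-5, while they held 32.5% of all counts.

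RNAs that carry no poly(A) tail were set beside these genes. RNU4-2, a U4 spliceosomal RNA, had 0, 0 and 24 counts after Olaparib and 40, 1 and 1 after DMSO. RNU4-1, its paralog, had 1, 0 and 17 counts after Olaparib and 30, 2 and 0 after DMSO. SNORD3A, the U3 small nucleolar RNA, had 1, 2 and 7 counts after Olaparib and 26, 2 and 0 after DMSO. The same 2 libraries held 97.0%, 94.0% and 86.8% of the counts of these RNAs. These genes and libraries were picked out after their values were seen. Of 28 RNAs without a tail in the list, 19 had a row and 8 passed the count filter, with a summed level of 2.95 CPM in Olaparib replicate 3, 4.80 CPM in DMSO replicate 1 and 1.34 to 1.87 CPM in the other 4 libraries. None of the 8 passed the test with all samples, and the smallest adjusted p was 0.417 (edgeR). Without Olaparib replicate 3, RNU4-2 was called lower, with a log2 fold change of -6.8 and an adjusted p of 0.0406 (edgeR). SCARNA7, a small Cajal body RNA, had 6, 6 and 9 counts after Olaparib and 19, 7 and 5 after DMSO, so that the same 2 libraries were again its highest. In SCARNA6, SCARNA10, SCARNA13 and TERC, the rest of the 8, the 2 libraries were not both at the top. SCARNA6 had 1, 5 and 1 counts after Olaparib and 6, 0 and 3 after DMSO. SCARNA10 had 12, 6 and 11 counts after Olaparib and 14, 4 and 7 after DMSO. SCARNA13 stood at 0.946, 0.740 and 0.850 CPM after Olaparib and at 0.615, 0.707 and 0.734 CPM after DMSO, and TERC, the telomerase RNA, stood at 0.352, 0.247 and 0.266 CPM after Olaparib and at 0.419, 0.210 and 0.228 CPM after DMSO.

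**Figure D4:**
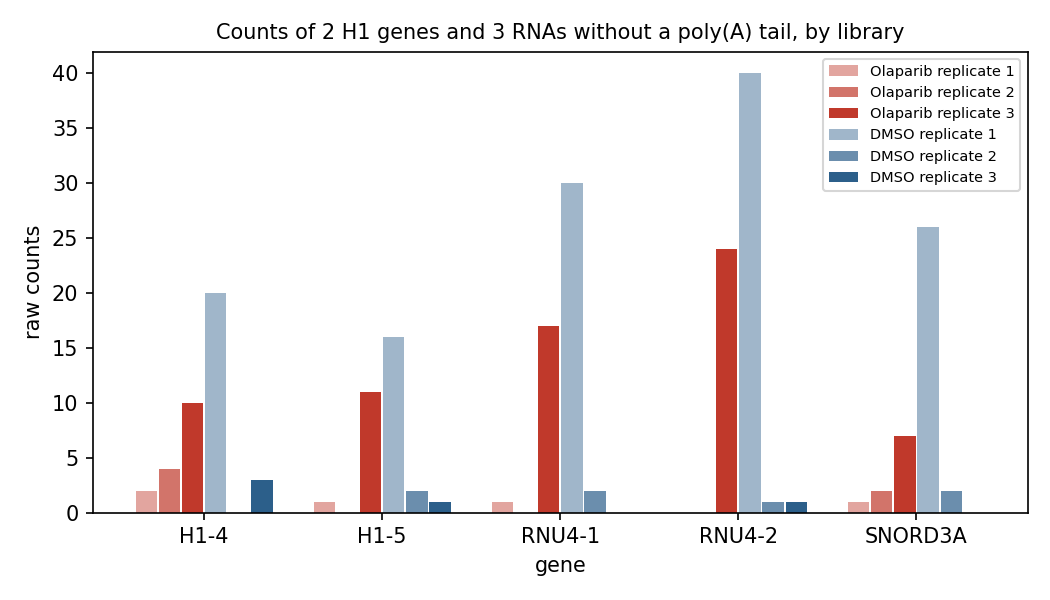
Raw counts of H1-4, H1-5, RNU4-1, RNU4-2 and SNORD3A in the 6 libraries (red, Olaparib replicates 1 to 3; blue, DMSO replicates 1 to 3, from light to dark). For each of the 5 genes, DMSO replicate 1 has the highest count and Olaparib replicate 3 the next.

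Over all 24 histone genes, 12 had their highest level in DMSO replicate 1 and 6 in Olaparib replicate 3, and in 9 genes these were the top 2 samples. How often these libraries were highest over all tested genes was not computed, so these counts have no background beside them. DMSO replicate 1 was highest in 8 of the 11 genes that averaged under 20 counts and in 4 of the 13 genes at 20 or more. Without DMSO replicate 1, the log2 fold change of H1-4 turned from -0.49 to 1.8 and that of H1-5 from -0.62 to 1.4, with adjusted p-values of 0.373 and 0.626 (edgeR). Without both libraries, H1-4 and H1-5 did not pass the count filter, 20 of the histone genes were tested, none was called, and the median log2 fold change was -0.16. The summed level then gave a log2 difference of -0.084 with an exact permutation p of 0.333, which is the smallest p that 2 samples against 2 allow. The part of this library difference in the histone values was not tested.

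The replication-independent histone genes are expressed outside S phase as well and served as a list for comparison. None of the 11 genes reported here passed the test (smallest adjusted p = 0.285, edgeR). At an unadjusted p under 0.05 the count was 1, H2AX, beside 14.8% of all tested genes (edgeR). H2AX, which is phosphorylated at DNA breaks, carries the stem-loop shown above and also has a longer annotated transcript. It stood at 124, 134 and 132 CPM after Olaparib and at 135, 137 and 139 CPM after DMSO. The groups of H2AX did not overlap, but its log2 fold change of -0.075 had an adjusted p of 0.285 (edgeR).

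The H2A.Z genes H2AZ1 and H2AZ2 had log2 fold changes of -0.002 and -0.056. The H3.3 genes H3-3A and H3-3B, which supply histone H3 outside replication, had 0.024 and -0.045, and CENPA, the centromeric H3, had 0.070. MACROH2A1 and MACROH2A2 had -0.0012 and 0.0045, H2AJ had -0.062 and H1-10 had -0.089. H3-5, with 45 counts in total, had -0.29. None of these 10 genes passed the test, with adjusted p-values of 0.435 or more (edgeR). The median over the 11 genes was -0.045, and the sum gave a log2 ratio of -0.025 (exact permutation p = 0.2, two-sided).

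The genes that act on histone genes and their mRNAs were then listed by role. Of 8 genes for histone gene transcription, 1 rose and 1 fell, beside 2.15% of all tested genes that rose and 1.21% that fell. CCNE2, a cyclin E that activates the kinase CDK2, had 27.0, 22.2 and 24.5 CPM after Olaparib and 33.9, 29.8 and 32.0 CPM after DMSO, with a log2 fold change of -0.38 ± 0.055 (SE) and an adjusted p of 3.65e-05 (edgeR). CCNE1, the other cyclin E, had 95.9, 96.3 and 94.7 CPM after Olaparib and 83.8, 86.4 and 85.9 CPM after DMSO, with a log2 fold change of 0.16 ± 0.036 (SE) and an adjusted p of 0.0058 (edgeR). Both genes had groups that did not overlap, in opposite directions. For CCNE1, the adjusted p was 0.0831 (edgeR) without DMSO replicate 1 and Olaparib replicate 3, at a log2 fold change of 0.15. NPAT, the substrate of cyclin E and CDK2 that activates histone genes, had a log2 fold change of 0.026 and an adjusted p of 0.870 (edgeR).

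Of 16 genes for histone mRNA 3′ end processing, none passed the test (smallest adjusted p = 0.233, edgeR). SLBP, the stem-loop binding protein, stood at 254, 252 and 254 CPM after Olaparib and at 264, 256 and 264 CPM after DMSO. Every Olaparib sample of SLBP lay below every DMSO sample, but its log2 fold change of -0.046 had an adjusted p of 0.492 (edgeR). At an unadjusted p under 0.05, 1 of these 16 genes was higher and 1 lower. Of 7 genes for histone mRNA decay, none passed the test (smallest adjusted p = 0.188, edgeR), and 1 was higher at an unadjusted p under 0.05. Of 22 histone chaperones, which carry histones to DNA, none passed either (smallest adjusted p = 0.187, edgeR), with 1 higher and 2 lower at an unadjusted p under 0.05. For these 3 lists, the counts at an unadjusted p under 0.05 stand beside 14.8% of all tested genes (edgeR, either direction). Without Olaparib replicate 1, 1 chaperone was called lower.

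Histone synthesis is coupled to S phase, so the cell cycle lists of the Seurat package were set beside the histone genes. Over all tested genes, 2.15% rose and 1.21% fell. Of those with a mean count of 200 or more, 5.84% were called in either direction. Of 42 S phase genes tested, none rose and 6 fell, namely UBR7, MCM6, UNG, DTL, RRM2 and CCNE2, with a median of -0.042 over the list. With 1 sample left out, 4 to 8 S phase genes fell. DTL, an adaptor of a ubiquitin ligase that acts in S phase, stood at 39.8, 37.7 and 38.0 CPM after Olaparib and at 48.2, 47.5 and 48.1 CPM after DMSO (log2 fold change -0.32, adjusted p = 6.01e-06, edgeR). Of 54 G2/M genes, 17 rose and none fell, with a median of 0.077. TOP2A, a topoisomerase, rose by 0.29 on the log2 scale, with 412, 384 and 388 CPM after Olaparib and 339, 315 and 313 CPM after DMSO (adjusted p = 1.48e-07, edgeR). The number of G2/M genes that rose was 11 without Olaparib replicate 3, without DMSO replicate 2 or without DMSO replicate 3, and 8 without DMSO replicate 1 and Olaparib replicate 3 together. The summed levels of the histone genes and of these lists were not tested against each other.

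**Figure D5:**
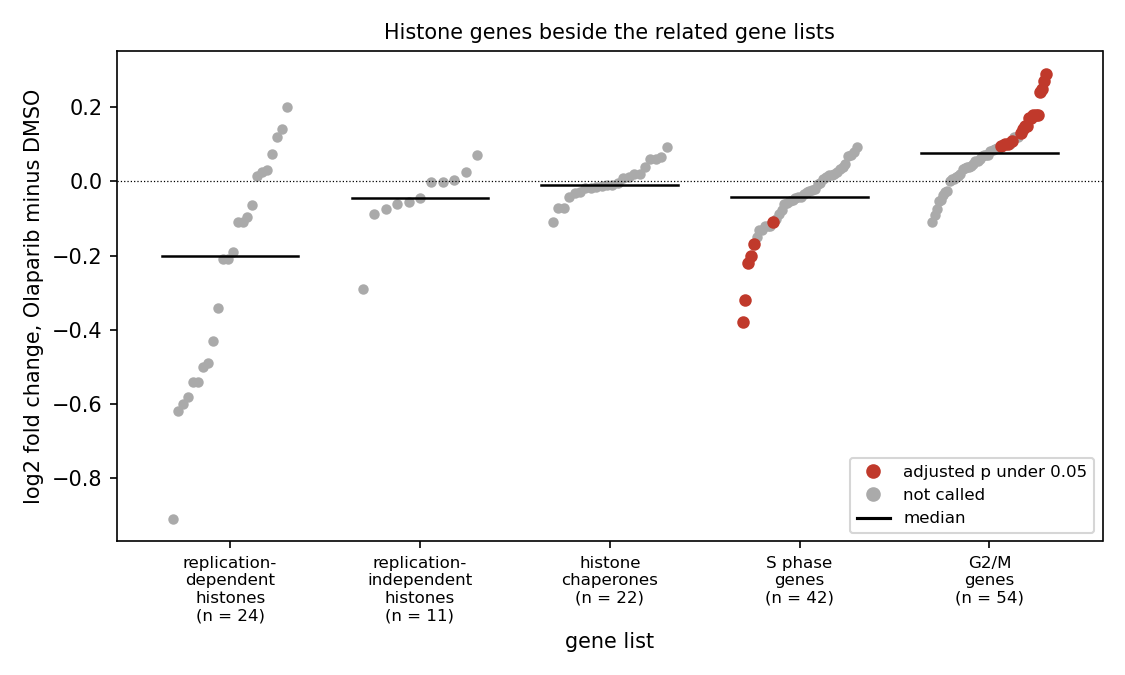
Log2 fold change (Olaparib minus DMSO, edgeR) of the 24 replication-dependent histone genes and of 4 related lists. Points are genes, red where the adjusted p was under 0.05, and black lines are medians (-0.20, -0.045, -0.0099, -0.042 and 0.077 from left to right). The replication-dependent genes have the widest spread of the 5 lists and no red point. They also have the lowest depth, with a median level of 0.624 CPM beside 57.0, 82.4, 59.0 and 157 CPM. Those with a mean count of at least 20 ran from -0.54 to 0.20. The lists were not compared at like depth.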

How the data were processed

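Poly(A) RNA of 3 Olaparib and 3 DMSO samples was sequenced. The paper states that reads were trimmed with Trimmomatic, mapped to GRCh38 with STAR, marked for duplicates with Picard and counted per gene with featureCounts. The deposited values are whole-number counts. Their identifiers come from an older annotation than GENCODE release 44, and whether they match the stated genome was not tested. Whether duplicates were removed is not given in the sources used here. Of 63677 listed identifiers, 81.9% were found in GENCODE release 44, which supplied symbols, coordinates and exon lengths.

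Genes with more than 10 counts in total were tested with edgeR 4.0.16 (R 4.3.3, TMM scaling, quasi-likelihood test, adjustment over all genes). Sums of genes were compared by exact permutation. Alternatives were DESeq2 1.42.0, limma voom (limma 3.58.1), other scalings and filters, a replicate block and left-out samples. The test was checked on simulated counts. Replicates of a condition differed by more than sampling noise (chi-square per degree of freedom 1.81 to 4.11 over 15525 genes). Floors cover counting error only, while the intervals of fold changes come from edgeR and include the spread between samples.

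The histone genes and all lists were chosen with earlier results of these data known. Named genes are called histone genes and called genes of the transcription, 3′ end processing, decay and chaperone lists. They are also the 8 histone genes with the highest level per kilobase and the 5 with the largest fold change at a mean count of at least 20. The rule further names the replication-independent histones, SLBP, NPAT and genes next to the count filter. Tailless RNAs are named where called or among the 3 with the most counts. Genes named outside this rule, among them DTL, TOP2A and the other S phase genes, were chosen after their values were seen. From the list of replication-independent histones, 1 gene is not reported here and was left out of that list's counts, median and sum. A total of 13 non-coding genes with matching symbols were left out.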

Additional observations from a re-analysis of the deposited data

How the results depend on the processing

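No histone gene was called higher or lower under any of the alternatives run, and the median log2 fold change and the difference of the summed level kept their sign. At an unadjusted p under 0.05, 1 gene was lower (H2AC6). This count was 4 without Olaparib replicate 3 (H1-5, H2AC25, H2AC6 and H4C3), 0 without Olaparib replicate 1, 1 without DMSO replicate 1, where H1-4 was also higher, and 2 without DMSO replicate 2, without DMSO replicate 3, without a filter on low counts, with the block, or without DMSO replicate 1 and Olaparib replicate 3. With all samples, 14.8% of all tested genes had an unadjusted p under 0.05 (edgeR), and 6.97% were also lower after Olaparib. Such shares are not given here for the alternatives, so the counts of histone genes under them have no matching background. The median log2 fold change was -0.54 over the 5 histone genes that share no 50-base stretch with another gene, which are fewer genes. Leaving out 1 sample at a time gave medians of -0.24 to -0.019 and summed differences of -0.12 to -0.033. With the replicate number as a block, 0 histone genes were called, the median was -0.20 and the summed difference was -0.069 (exact p = 0.5), while 11 S phase genes fell and 1 chaperone fell. The numbers did not pair the samples (correlations of -0.0786, 0.102 and -0.103 over 14807 genes, with 2 of 6 samples closest to their own number). Over all genes, 730 were called, 1322 with the block, and 398, 401 and 439 without DMSO replicate 2, DMSO replicate 3 and Olaparib replicate 3, and 247 without DMSO replicate 1 and Olaparib replicate 3.

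Signs turned for genes near 0 or of few counts, and the cause was not tested. With 1 sample left out, the log2 fold changes ran from -0.0064 to 0.062 for H2BC12, -0.091 to 0.10 for H2BC5, -0.27 to 0.025 for H2AC25, -0.053 to 0.13 for H2BC11, -0.78 to 0.13 for H2BC18, -0.019 to 0.012 for H2AZ1, -0.0094 to 0.0092 for MACROH2A1, -0.0018 to 0.015 for MACROH2A2, -0.039 to 0.084 for H3-3A, -0.0083 to 0.076 for NPAT, -6.8 (called lower, adjusted p = 0.0406, edgeR, without Olaparib replicate 3) to 2.9 for RNU4-2 and -0.15 to 0.39 for TERC. Without DMSO replicate 1 and Olaparib replicate 3 they were -0.0097 for H2BC12, 0.015 for MACROH2A1, -0.0083 for MACROH2A2, -0.066 for H3-3A and 0.44 for TERC. Upper-quartile scaling gave -0.0045 for MACROH2A2.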
